A study of Mus musculus with 12 samples.

Results

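The small leucine-rich proteoglycans (SLRPs) are secreted matrix proteins built on a core of leucine-rich repeats. They were followed here as 10 genes: Dcn, Bgn and Aspn of class I, Lum, Fmod, Prelp, Kera and Omd of class II, and Ogn and Epyc of class III. The genes were chosen by name, whatever their level, and all 10 were found among the 55413 genes of the deposited expression table. SLRP proteins lie along collagen fibrils, where they control fibril width and spacing, and most carry chains of chondroitin, dermatan or keratan sulfate. Several also bind growth factors of the TGF-beta family. Released from damaged matrix, biglycan acts as an alarm signal through Toll-like receptors.

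The study cultured fibroblasts from paws of BALB/c mice after injections of monosodium urate (MSU) crystals, the crystals that cause gout, and asked what an earlier crystal attack and the BET inhibitor I-BET151 did to their transcriptome. I-BET151 blocks the bromodomains with which BET proteins read acetylated histones. RNA was sequenced in 12 libraries, 3 in each of 4 groups. Non-primed vehicle cultures came from right paws, which received MSU on day 9 only, in mice injected intraperitoneally with vehicle. Primed vehicle cultures came from left paws, which received MSU on day 0 and again on day 9, in vehicle mice. Primed in vivo cultures came from left paws with the same MSU injections, in mice given 20 mg/kg I-BET151 per day intraperitoneally from 1 day before the first MSU injection. Primed in vitro cultures came from primed paws and received 1 µM I-BET151 for 24 h before harvest; whether their mice had received vehicle is not in the labels. RNA was taken on day 18, by the labels, and all cultures had gone through 5 passages. Left or right paw and priming go together and cannot be told apart. Cells of 2 to 3 paws were pooled per culture. Whether each library of a group stands for its own animal, and whether left and right paws of the same vehicle mice entered the primed and non-primed groups, is not in the labels, so p-values measure the spread between these libraries. Neither age nor sex of the mice was given in the sources used here.

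The labels call the cells synovial fibroblasts, obtained by collagenase digestion of paws without skin, but the libraries differed in marker levels. The values are rlog values, a log2 scale of abundance made by the authors, so 1 unit is a doubling. The mean rlog of 15 melanocyte marker genes was 12.33 to 13.92 in 5 libraries (the 3 non-primed libraries and in vivo libraries 2 and 3) and 5.48 to 6.66 in the other 7. The mean of 10 fibroblast markers was 7.22 to 10.66 in those 5 libraries and 13.84 to 14.65 in the other 7. Macrophage markers (10 genes) averaged 3.28 to 6.14 against 7.48 to 9.57, and tenocyte markers (8 genes, of which Kera and Fmod are SLRPs) 3.92 to 6.45 against 9.46 to 10.53. Osteoblast markers (7 genes, Omd among them) averaged 1.97 to 2.98 against 3.69 to 5.41, and chondrocyte markers (11 genes) 4.44 to 5.41 against 5.07 to 5.87. Tyrp1, a melanin-making enzyme gene, had 17.44 to 18.62 in these 5 and 3.98 to 6.1 elsewhere. In vivo library 1 correlated across genes at 0.986 to 0.9918 with the in vitro libraries and at 0.8913 and 0.897 with the other libraries of its own group. Xist, the X-inactivation RNA made in female cells, had 5.02 to 10.16 in the same 5 and 13.68 to 14.5 elsewhere. The libraries are called by their labels throughout, and whether labels were exchanged or cells of other sources were mixed in was not tested. In bulk RNA, fewer cells of a type and less RNA per cell cannot be told apart. The depth of the libraries is unknown because the files give no counts.

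Within primed vehicle cultures the family spanned a wide range of levels. Compared per length, as the group mean rlog minus log2 of the exonic length in kb, Bgn stood highest at 15.05, followed by Dcn at 14.19, Fmod at 12.89, Prelp at 12.24 and Lum at 12.0. Ogn (8.24), Aspn (5.92), Omd (3.62), Epyc (3.18) and Kera (-0.29) followed. Kera encodes keratocan, best known from the cornea, and its rlog values stayed between -0.04 and 1.31 in all 12 libraries. Kera and Epyc did not reach the mean rlog of 3 asked of a gene to be tested, so 8 of the 10 genes were tested among 16459 genes.

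**Figure D1:**
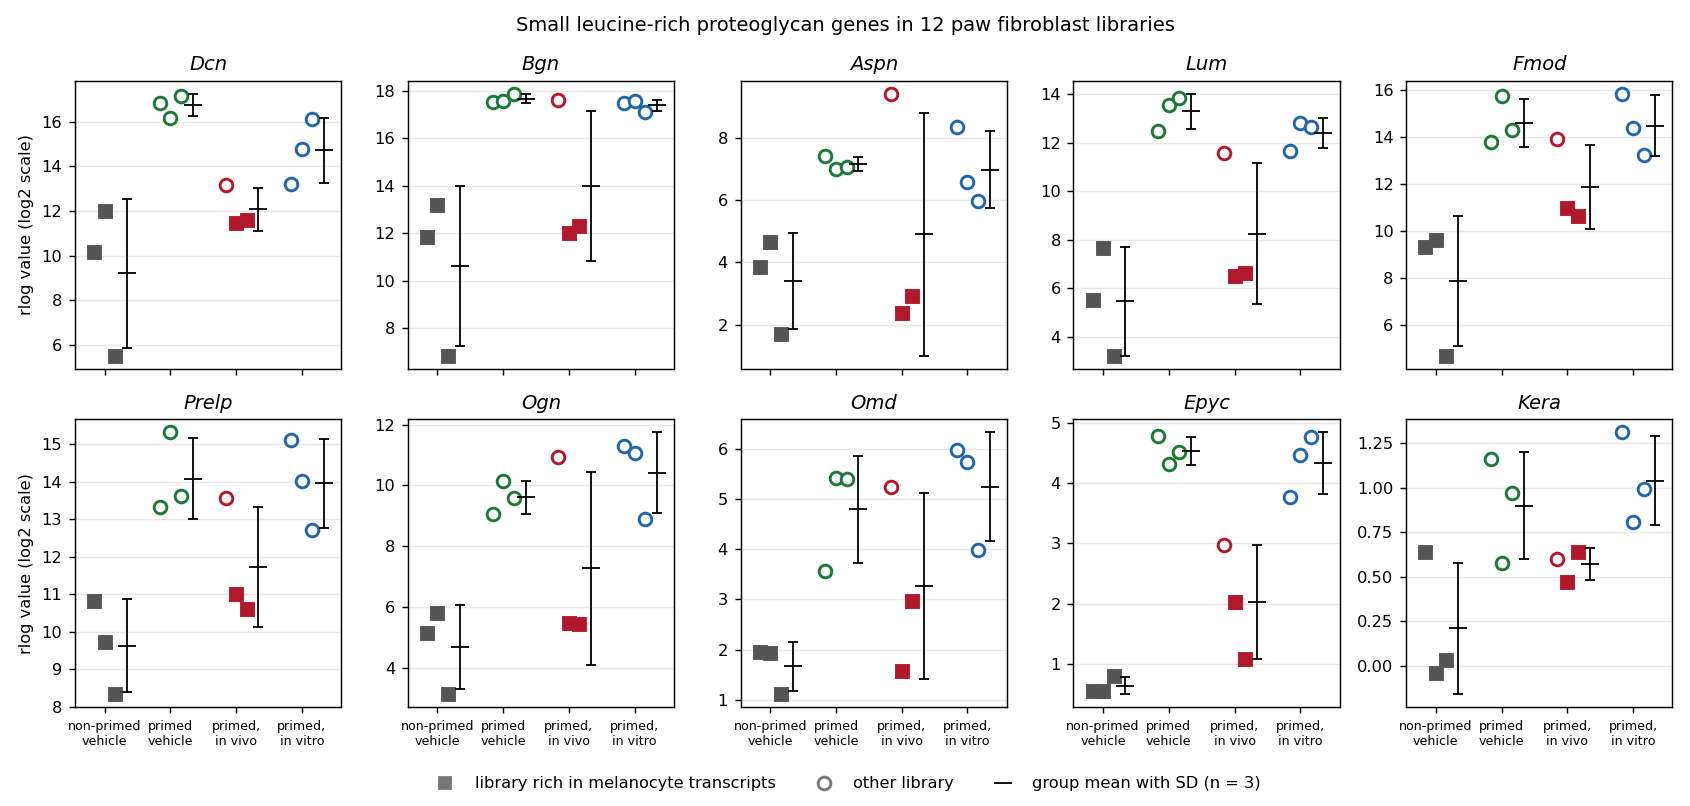
rlog value (log2 scale) of each SLRP gene in every library, by group; filled squares are the 5 libraries rich in melanocyte transcripts, open circles the other 7, and black bars the group mean with its SD (n = 3). In every panel except Kera the squares lie below all circles, and in vivo library 1 is the only circle of its group.

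Every one of the 8 tested SLRP genes had a higher mean in primed than in non-primed vehicle cultures, and 7 of them passed the test (limma, Benjamini-Hochberg adjusted p under 0.05). Of all 16459 genes, 28.9% were called higher and 22.9% lower in this comparison. The median difference over the 8 genes was 5.83, and over all genes it was 0.05. The non-primed libraries are all rich in melanocyte transcripts and the primed ones are not, with the marker values given above. Xist differed by 6.25 ± 1.34 (limma adjusted p = 0.00422). Bgn is X-linked, as is its neighbour Haus7, which differed by -0.1 ± 0.18, and a link of Bgn to Xist was not tested. The part of library makeup in the SLRP differences cannot be told apart from priming in these groups.

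Among class I genes, Dcn encodes decorin, which binds collagen fibrils and TGF-beta. Its rlog values were 10.16, 11.99 and 5.51 in non-primed libraries 1 to 3 and 16.86, 16.18 and 17.16 in primed vehicle libraries 1 to 3. The groups did not overlap, and non-primed library 3 was the lowest of all 12. The difference was 7.51 ± 1.37 (SE, limma adjusted p = 0.00248). Bgn encodes biglycan, the closest relative of decorin. Bgn values were 11.86, 13.19 and 6.83 against 17.51, 17.59 and 17.86, a difference of 7.03 ± 1.66 (limma adjusted p = 0.00644). The primed libraries lay within a narrow band, while the non-primed ones spread widely, with library 3 again lowest. Aspn encodes asporin, a class I protein without a glycosaminoglycan chain that binds collagen and TGF-beta. Its values were 3.85, 4.65 and 1.69 against 7.42, 6.98 and 7.06. The groups did not overlap, but the difference of 3.76 ± 1.59 did not pass the test over 12 libraries (95% interval 0.22 to 7.29, limma adjusted p = 0.0703). When only the 6 libraries of the 2 groups entered the fit, Aspn passed, with an SE of 0.75 and an adjusted p of 0.00704.

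In class II, Lum had the largest difference of the family. Lum encodes lumican, which carries keratan sulfate in the cornea and regulates fibril assembly in many tissues. Its values were 5.49, 7.65 and 3.2 in non-primed and 12.49, 13.54 and 13.83 in primed vehicle libraries, a difference of 7.84 ± 1.37 (limma adjusted p = 0.00218). No non-primed library reached the lowest primed one. Fmod encodes fibromodulin, a collagen-binding protein abundant in tendon and cartilage. Fmod stood at 9.32, 9.62 and 4.7 against 13.79, 15.75 and 14.3, a difference of 6.73 ± 1.33 (limma adjusted p = 0.00314). Prelp encodes a protein that ties basement membranes to connective tissue, and its values were 10.82, 9.73 and 8.33 against 13.34, 15.32 and 13.62. Its difference was 4.47 ± 0.93 (limma adjusted p = 0.0039). For both genes the groups were apart, and primed vehicle library 2 was the highest of the primed vehicle libraries. Omd encodes osteomodulin, found in bone matrix. Omd was low throughout, at 1.96, 1.94 and 1.11 against 3.57, 5.41 and 5.4, with a difference of 3.13 ± 0.9 (limma adjusted p = 0.0156). This call ended without primed vehicle library 2 (adjusted p = 0.0534) or library 3 (adjusted p = 0.0555).

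In class III, Ogn encodes osteoglycin (mimecan), which takes part in collagen fibril assembly. Ogn values were 5.14, 5.79 and 3.12 in non-primed and 9.06, 10.15 and 9.59 in primed vehicle libraries, a difference of 4.92 ± 1.36 (limma adjusted p = 0.013). Epyc encodes epiphycan of growth plate cartilage and was near the bottom of the scale. It stood at 0.56, 0.55 and 0.8 against 4.78, 4.31 and 4.51. In a fit of all genes with a value other than 0, its difference was 3.9 ± 0.5 (limma adjusted p = 0.000961). Kera, in the same fit, differed by 0.69 ± 0.27 and did not pass (limma adjusted p = 0.0837). The rlog transformation shrinks the differences of genes with few reads, so the values of Epyc, Kera and Omd understate changes more than those of the abundant members.

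How the libraries were scaled changed the balance of calls over all genes but not the SLRP count. With quantile normalization the split over all genes was 3858 higher and 5680 lower, against 4754 and 3774 as deposited, and the median over all genes moved to -0.24. The same 7 SLRP calls were counted under that scaling, with a median difference of 5.24.

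**Figure D2:**
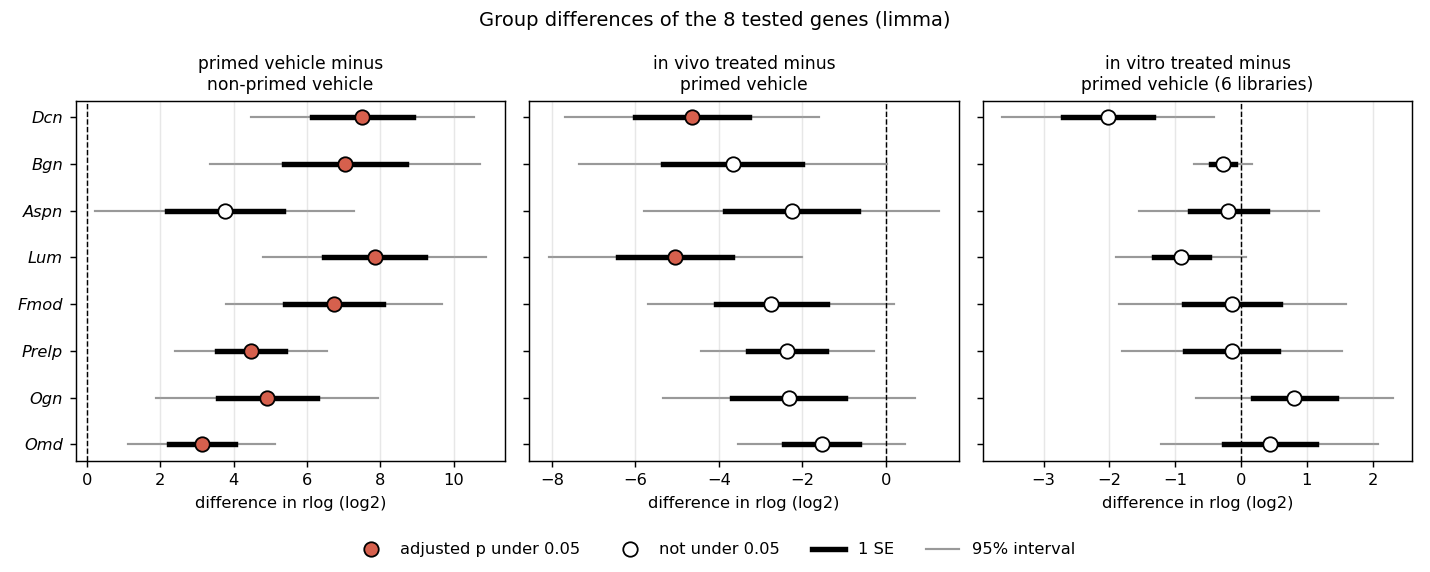
Difference in rlog (log2) of the 8 tested SLRP genes in 3 comparisons, each on its own horizontal scale; thick bars are 1 SE, thin bars the 95% interval, and filled points passed an adjusted p of 0.05 in limma. Differences from non-primed vehicle run from 3.13 to 7.84; in the in vivo comparison Dcn and Lum passed, and in the in vitro comparison (6 libraries) none did.

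Primed cultures of mice given I-BET151 had lower means than primed vehicle cultures for all 8 tested genes, and Dcn and Lum passed the test. Over all genes, 17.9% were called higher and 21.8% lower. The median difference of the 8 genes was -2.56, against -0.05 over all genes. Dcn stood at 13.19, 11.47 and 11.61 in in vivo libraries 1 to 3, all below the primed vehicle range of 16.18 to 17.16. Its difference was -4.65 ± 1.37 (limma adjusted p = 0.0246). Lum stood at 11.59, 6.49 and 6.64, again all below the lowest primed vehicle value of 12.49. Its difference was -5.05 ± 1.37 (limma adjusted p = 0.0184).

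In the other 6 tested members, as in Dcn and Lum, in vivo libraries 2 and 3 lay below library 1. Bgn was 17.62 in library 1, inside the primed vehicle range of 17.51 to 17.86, and 12.02 and 12.31 in libraries 2 and 3, which are rich in melanocyte transcripts. Ogn was 10.93 in library 1, above all primed vehicle libraries, and 5.46 and 5.42 in the other two. Aspn showed the widest gap, at 9.39 in library 1, the highest of all 12 libraries, against 2.39 and 2.91. Omd stood at 5.23 against 1.57 and 2.97. Fmod (13.93 against 11 and 10.67) and Prelp (13.56 against 11.01 and 10.61) had library 1 within the primed vehicle range. None of these 6 genes passed over the 3 libraries. Their differences ran from -3.67 ± 1.66 for Bgn (95% interval -7.36 to 0.02, limma adjusted p = 0.0979) to -1.54 ± 0.9 for Omd (95% interval -3.54 to 0.46, limma adjusted p = 0.186).

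The count of calls therefore rested on which libraries entered. Without in vivo library 1 all 8 tested genes were called lower, with differences from -6.72 ± 1.02 for Lum to -2.52 ± 0.75 for Omd, and 33.5% of all genes were called lower. With in vivo library 1 as the only in vivo library, limma called none of the 8 SLRP genes and 195 genes in all, its lone library being assumed to vary like those of the other groups. Dcn was then lower by 3.54 ± 2.06 (a difference of -3.54, limma adjusted p = 0.328) and Lum by 1.69 ± 1.36 (a difference of -1.69, limma adjusted p = 0.479). Bgn differed by -0.04, and the differences of Aspn (2.24), Ogn (1.33) and Omd (0.44) turned positive. Leaving out in vivo library 2, in vivo library 3, primed vehicle library 2 or primed vehicle library 3 also left 0 calls, and leaving out primed vehicle library 1 left 1. Lower calls over all 16459 genes fell as well, to 1466, 1446, 2111, 1949 and 2377 in that order, from 3585 in the main fit. The adjusted p of Dcn was 0.0528 to 0.0846 in the 5 of these fits that lacked 1 library, and that of Lum was 0.0536 to 0.0777 in the 4 fits with no calls. Epyc, in the fit without a filter, differed by -2.5 ± 0.5 (limma adjusted p = 0.00886), with 2.98, 2.03 and 1.09 in the in vivo libraries. Under median-centred libraries the split over all genes was 4029 higher and 2964 lower, and under quantile normalization 4595 and 2967, against 2946 and 3585 as deposited. The median of all genes then stood at 0.13 and 0.19. Dcn and Lum were lower under both scalings.

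After 24 h of I-BET151 in the dish none of the 8 tested SLRP genes passed the test, and Dcn had the largest difference. Primed vehicle and in vitro libraries are all poor in melanocyte transcripts, and a second fit took these 6 libraries alone. In that fit 13.4% of all genes were called higher and 16.9% lower. In the fit of all 12 libraries 1.76% were called higher and 2.76% lower. At an unadjusted p under 0.05, limma counted 1 of 8 in the 6-library fit, where 43.1% of all genes passed that mark, and 0 of 8 in the 12-library fit, where 23.8% did. Dcn stood at 13.23, 14.79 and 16.13 in in vitro libraries 1 to 3, each below the lowest primed vehicle value of 16.18. Its difference was -2.02 ± 0.68 (95% interval -3.63 to -0.41), and its limma adjusted p of 0.0634 missed the threshold. Without in vitro library 3, which lay next to the vehicle libraries, Dcn passed at -2.73 ± 0.5 (limma adjusted p = 0.0118). Leaving out that library widens the difference by itself, so this pass is no separate support.

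Bgn, the nearest relative of Dcn, stood at 17.48, 17.56 and 17.12 in the in vitro libraries, close to its vehicle values. The difference of Bgn was -0.27 ± 0.18 (95% interval -0.71 to 0.17, limma adjusted p = 0.311). Lum, at 11.67, 12.81 and 12.65, overlapped the vehicle range and differed by -0.91 ± 0.42 (95% interval -1.9 to 0.08, limma adjusted p = 0.143). Without primed vehicle library 1, its lowest vehicle library, Lum passed at -1.31 ± 0.34 (limma adjusted p = 0.0383). Ogn went the other way, at 11.28 and 11.07 in libraries 1 and 2, above all vehicle libraries, and 8.9 in library 3, below them. Its difference was 0.81 ± 0.63 (95% interval -0.68 to 2.31, limma adjusted p = 0.366), and 1.57 ± 0.31 without in vitro library 3 (limma adjusted p = 0.0152). For Lum and Ogn too, the library left out was the one lying most against the difference, so these passes are no separate support.

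The other members gave no call and small differences. Fmod differed by -0.13 ± 0.73 (95% interval -1.85 to 1.59) and Prelp by -0.14 ± 0.71 (95% interval -1.81 to 1.54). For Aspn the difference was -0.19 ± 0.58 (95% interval -1.55 to 1.18) and for Omd 0.44 ± 0.7 (95% interval -1.21 to 2.09). The limma adjusted p of these 4 lay between 0.662 and 0.907. Intervals of this width include changes of more than 1 log2 unit in either direction, so the data do not show that these genes held still. The sign for Aspn turned under quantile normalization (0.21). Over all genes, the 6-library split was 2207 higher and 2776 lower as deposited, 3116 and 2281 with median-centred libraries, and 3064 and 2300 with quantile normalization. In the 12-library fit it was 289 and 454 as deposited and 573 and 582 with quantile normalization.

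The rlog difference Dcn minus Bgn within a library, picked after the values were seen, is given as a description. It is not corrected for gene length and is read only between libraries, and adding a constant to all genes of a library does not change it. It was -0.65, -1.41 and -0.7 in primed vehicle libraries and -4.25, -2.77 and -0.99 in in vitro libraries 1 to 3. In vivo library 1 had -4.43, and the 5 libraries rich in melanocyte transcripts ran from -1.7 to -0.56. In vitro libraries 1 and 2 and in vivo library 1 thus lay below every other library, while in vitro library 3 lay within the vehicle range.

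The treated groups were also set against each other and against non-primed vehicle. In vivo treated against non-primed vehicle gave no call over all 16459 genes (0% higher, 0% lower), with 3366 genes and 2 of the 8 SLRP genes, Fmod and Prelp, at an unadjusted p under 0.05 in limma. Fmod was higher by 3.99 ± 1.33 (limma adjusted p = 0.222) and Prelp by 2.1 ± 0.93 (limma adjusted p = 0.242). With only in vivo library 1, an alternative chosen after seeing the data, 7 of the 8 were called higher than in non-primed vehicle, by 3.56 ± 0.94 (Omd) to 6.99 ± 1.89 (Bgn), as were 19.8% of all genes. Without in vivo library 1 every library compared is rich in melanocyte transcripts. That fit called 0 of all genes higher and 0 lower, so the lack of SLRP calls is not particular to these genes. Their largest difference was that of Fmod at 2.96 ± 1.34 (limma adjusted p = 0.361). In vitro against in vivo treated also gave 0 calls over all genes (0% in each direction), with 5341 genes and 3 of the 8 SLRP genes at an unadjusted p under 0.05. Lum differed by 4.14 ± 1.37, Ogn by 3.14 ± 1.36 and Prelp by 2.23 ± 0.93 (limma adjusted p = 0.122 to 0.144). Without in vivo library 1, 7 of the 8 were called higher in vitro, all except Dcn (3.18 ± 1.54, limma adjusted p = 0.114), against 27.2% of all genes. Against in vivo library 1 alone, chosen after seeing the data, Bgn (-0.23), Ogn (-0.52) and Aspn (-2.42) were lower in vitro.

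Ordered by group mean, the levels ran from non-primed vehicle through in vivo and in vitro to primed vehicle for Dcn, Bgn, Aspn, Lum, Fmod, Prelp and Epyc. Group means of Dcn were 9.22 ± 3.34, 12.09 ± 0.96, 14.72 ± 1.45 and 16.74 ± 0.5 (SD, n = 3 each) in that order. For Ogn, Omd and Kera the in vitro group came last, above primed vehicle. Ogn had 4.68 ± 1.39, 7.27 ± 3.17, 9.6 ± 0.55 and 10.42 ± 1.32 in non-primed, in vivo, primed vehicle and in vitro groups. No step between neighbours in its order passed the test for any of the 8 tested genes in the fit of 12 libraries.

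The genes lie in small groups in the genome. On GRCm38, with the gene models of GENCODE M21, Dcn, Lum, Kera and Epyc follow each other on chromosome 10 within 202.8 kb (chr10:97479609-97682454), all on the plus strand. Aspn, Omd and Ogn follow each other on chromosome 13 within 80.1 kb (chr13:49544443-49624501), also on the plus strand. Prelp and Fmod lie on opposite strands of chromosome 1 within 138.0 kb (chr1:133910304-134048277), transcribed away from each other. Bgn lies alone on the X chromosome (chrX:73483602-73495933). Aspn, Omd and Ogn lie inside the span of Cenpp, a centromere protein gene on the other strand, which shares 7 exonic bases with Aspn and 0 with the other 2. Cenpp was lower in primed than in non-primed vehicle by 2.15 ± 0.36 (a difference of -2.15, limma adjusted p = 0.00185), the opposite direction to Omd and Ogn. Prelp shares 350 exonic bases with the antisense gene Gm15851, whose mean rlog was 2.34. Epyc shares 1041 exonic bases with Gm10754 (mean rlog -1.37). The library kit keeps strand, but how the counting treated strand is not stated in the labels, so reads of such partners may not be told apart.

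Neighbours of the clusters were taken as the nearest 2 protein-coding genes on each side. On chromosome 13, Ecm2, itself a leucine-rich repeat matrix gene, was higher in primed vehicle by 3.02 ± 0.47 (limma adjusted p = 0.00152). Next to Ogn, Nol8, a nucleolar protein gene, was level, from 10.54 to 11.28 in all libraries, and Iars, a transfer RNA synthetase gene, differed by -0.4 ± 0.19 (limma adjusted p = 0.095). Tes3-ps, before Ecm2, differed by -0.59 ± 0.38 (limma adjusted p = 0.208). On chromosome 1, Optc, the class III gene for opticin, was higher by 1.47 ± 0.49 (limma adjusted p = 0.0275), Atp2b4 by 2.22 ± 0.7 (limma adjusted p = 0.022) and Btg2 by 2.19 ± 0.3 (limma adjusted p = 0.00114), while Chit1 was too low to be tested. On chromosome 10, Btg1 was higher by 1.86 ± 0.37 (limma adjusted p = 0.00339), and Gm5426, Ccer1 and C030005K15Rik were listed at 0 in every library. Beside Bgn, Haus7 stayed between 9.8 and 10.66, Dusp9 was higher by 3.06 ± 0.63 (limma adjusted p = 0.00367), Atp2b3 was too low to be tested and Trex2 was listed at 0. Genes next to the SLRPs thus did not all share their difference, since Nol8, Iars, Tes3-ps and Haus7 did not pass the test.

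**Figure D3:**
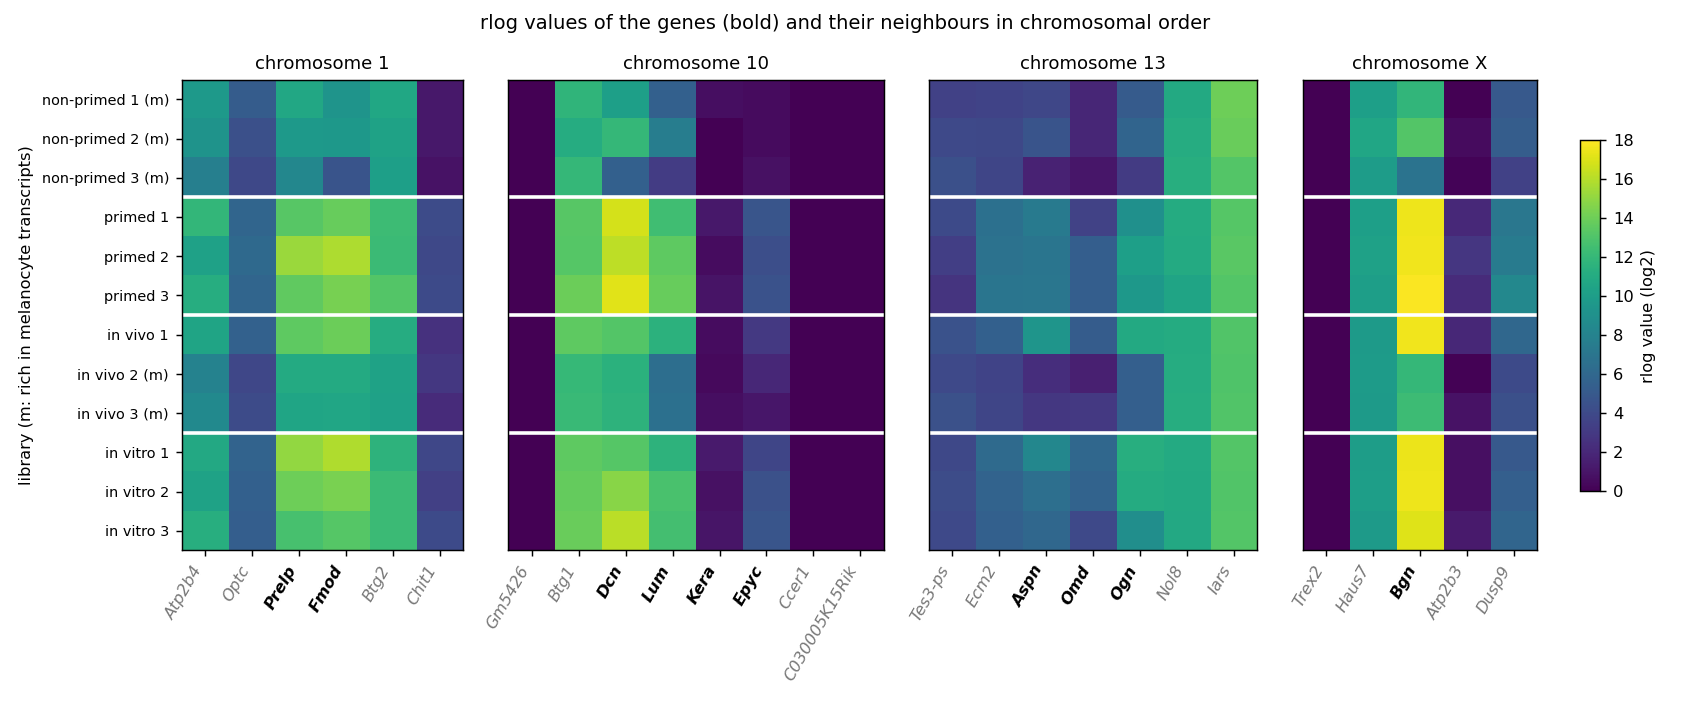
rlog value (colour, log2) of the SLRP genes (bold) and their nearest coding neighbours in chromosomal order, 1 row per library; white lines part the groups and (m) marks libraries rich in melanocyte transcripts. Nol8, Iars and Haus7 keep 1 colour down the column, while Dcn, Lum, Ogn and Bgn darken in the 5 marked rows.

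The sequences just before 5 of the start sites are shown, for genes picked by their values. Fmod and Prelp varied together in the 7 libraries poor in melanocyte transcripts, and Bgn kept within 17.12 to 17.86 in those 7. Ogn was above all primed vehicle libraries in in vitro libraries 1 and 2 and in vivo library 1. Aspn was above them only in in vitro library 1 and in vivo library 1, and both its treated group means were below vehicle. Omd, also above primed vehicle in in vitro libraries 1 and 2, is not shown. The sequences are from RefSeq on GRCm38.p6, 5′ to 3′ in the direction of transcription, and end at the base before the start site. For Prelp the last 13 bases are left out because GENCODE M21 counts them as exon. Capitals mark matches on either strand to a TATA box, searched as TATAAA, to a GC box, searched as GGGCGG, to a CCAAT box, searched by those letters, and to an AP-1 site, searched as TGANTCA. The core of an interferon response element was searched as well. The stretches are chr1:134037004-134037253 for Fmod, chr1:133921415-133921651 for Prelp, chrX:73483351-73483600 for Bgn, chr13:49607765-49608014 for Ogn and chr13:49544193-49544442 for Aspn, on the plus strand for all but Prelp.
Fmod: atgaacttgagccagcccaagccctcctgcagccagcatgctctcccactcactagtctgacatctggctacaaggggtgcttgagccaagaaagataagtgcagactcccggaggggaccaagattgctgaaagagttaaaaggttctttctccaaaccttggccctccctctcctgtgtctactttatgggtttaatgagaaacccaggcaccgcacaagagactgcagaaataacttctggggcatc
Prelp: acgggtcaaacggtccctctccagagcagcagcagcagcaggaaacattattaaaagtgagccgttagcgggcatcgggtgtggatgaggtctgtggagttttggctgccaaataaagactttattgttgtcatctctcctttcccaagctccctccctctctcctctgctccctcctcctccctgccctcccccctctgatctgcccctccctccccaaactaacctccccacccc
Bgn: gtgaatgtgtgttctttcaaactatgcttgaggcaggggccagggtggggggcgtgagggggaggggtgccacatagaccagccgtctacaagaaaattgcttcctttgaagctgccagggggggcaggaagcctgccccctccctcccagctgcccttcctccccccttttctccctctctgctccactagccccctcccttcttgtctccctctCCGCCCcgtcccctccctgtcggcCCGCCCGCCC
Ogn: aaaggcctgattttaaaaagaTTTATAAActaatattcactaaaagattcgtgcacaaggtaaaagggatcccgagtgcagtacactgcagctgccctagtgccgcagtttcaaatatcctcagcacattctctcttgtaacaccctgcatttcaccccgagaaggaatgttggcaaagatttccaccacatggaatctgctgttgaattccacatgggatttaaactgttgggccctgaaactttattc
Aspn: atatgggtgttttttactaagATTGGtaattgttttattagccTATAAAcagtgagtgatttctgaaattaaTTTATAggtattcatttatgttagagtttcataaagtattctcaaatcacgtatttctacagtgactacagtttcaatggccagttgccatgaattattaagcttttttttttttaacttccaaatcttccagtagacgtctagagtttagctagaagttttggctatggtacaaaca

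Bgn has the most GC-rich stretch, at 64.4% against a median of 52.4% over all 32841 windows of 250 bases in the table, with 3 GC boxes on the minus strand that begin 34, 10 and 6 bases before the start site, the last 2 overlapping. GC boxes occur in 32.7% of all windows. Aspn has the most AT-rich stretch (30% GC), with 2 TATA boxes, 1 on each strand, and 1 CCAAT box, the nearest of which begins 178 bases before the start. Ogn (42.0% GC) has 2 overlapping TATA boxes on opposite strands, which begin 229 and 227 bases before the start. TATA boxes occur in 12.4% and CCAAT boxes in 33.9% of all windows. The stretches of Fmod (51.2% GC) and Prelp (56.5% GC) hold none of the 5 motifs. No AP-1 site or interferon response core was found in any of the 5 stretches, against 6.75% and 2.98% of all windows. These are matches of letters, and binding was not measured.

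Fmod and Prelp varied together in the libraries poor in melanocyte transcripts. In these 7 libraries Fmod ranged from 13.24 to 15.83 and Prelp from 12.73 to 15.32, yet the rlog difference Fmod minus Prelp, also picked after its values were seen, was 0.35 to 0.72. In the 5 rich ones it was -3.63 to 0.06. Primed vehicle library 2 and in vitro library 1 were the highest for both (15.75 and 15.83 for Fmod, 15.32 and 15.11 for Prelp), and in vitro library 3 was the lowest. Over the 6 libraries of primed vehicle and in vitro cultures their Pearson correlation was 0.99 (Spearman 0.943), and 0.968 without the 2 libraries farthest from the median. Comp, a cartilage and tendon matrix gene picked after its values were seen, followed a like order, with 10.62, 14.65 and 13.41 in primed vehicle and 14.85, 13.91 and 10.73 in in vitro libraries. Thbs4, a tendon gene also picked afterwards, had 12.14, 14.63 and 13.94, then 15.02, 14.26 and 12.16. Other tenocyte markers did not all follow. Mkx had 11.33, 11.1 and 10.99, then 10.06, 10.42 and 10.56. Scx had 9.92, 10.61 and 10.24, then 9.4, 9.34 and 9.23, and Egr1 13.16, 12.55 and 13.33, then 12.96, 13.7 and 13.82. For Fmod and Prelp, high and low libraries occurred in both groups. Col2a1, a cartilage collagen gene also picked afterwards, had 6.62, 11.18 and 9.75 in primed vehicle and 11.42, 9.99 and 6.42 in in vitro libraries. Other chondrocyte markers did not all follow, such as Sox9, with 9.69, 9.4 and 11.17, then 10.08, 9.86 and 9.93. Whether the shared course of Fmod and Prelp comes from the share of tendon-like or cartilage-like cells was not tested. Omd and Ogn, neighbours on chromosome 13, correlated at 0.882 (Spearman 0.943, and 0.927 without the 2 farthest). Dcn and Ogn correlated at -0.84 (Spearman -0.6), which rested on 2 libraries, since it was -0.068 without the 2 farthest. Dcn and Lum, neighbours on chromosome 10, correlated at 0.738 (Spearman 0.6, and 0.278 without the 2 farthest). These 45 pairs share 6 libraries in 2 groups, so the correlations are descriptions.

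**Figure D4:**
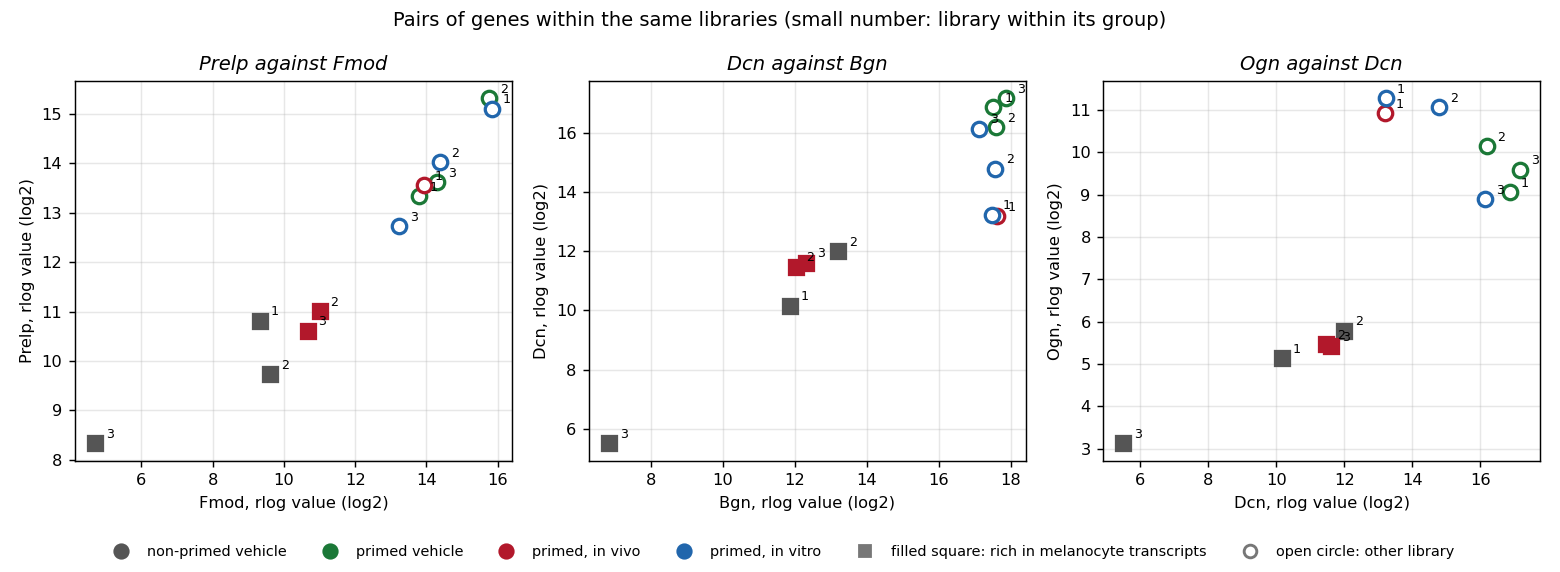
rlog values (log2) of Prelp against Fmod, Dcn against Bgn and Ogn against Dcn, 1 point per library, coloured by group; filled squares are rich in melanocyte transcripts. Fmod minus Prelp is 0.35 to 0.72 in the circles and -3.63 to 0.06 in the squares, and among the circles, with Bgn at 17.12 to 17.86, Dcn runs from 13.19 to 17.16, with in vivo library 1 and in vitro libraries 1 and 2 lowest.

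Other genes with the most similar course over the same 6 libraries were named by the correlation of rlog values. For Dcn these were Lgals3bp (0.999), a galectin-binding glycoprotein, Bst2 (0.995), the interferon-induced membrane protein tetherin, and Cwc15 (0.995). Bst2 had 14.58, 14.19 and 15.15 in primed vehicle, 11.14, 12.61 and 13.77 in in vitro and 11.26 in in vivo library 1. All these genes were picked for the highest correlation among all genes tested, over only 6 libraries. Their likeness to a member follows from that choice and is a description. Some moved little, such as Cwc15, which stayed between 12.55 and 12.91 in these libraries. For Ogn the nearest genes were Mmp16 (0.999), a membrane-type metalloproteinase, Asah1 (0.997), acid ceramidase, and Igsf10 (0.997). For Bgn they were Lcp2 (0.993), Ccl4 (0.992) and Tgds (0.991), for Lum Lsm1 (0.99), 6720483E21Rik (0.985) and Akt2-ps (0.984), for Fmod Dleu2 (0.993), Hbs1l (0.989) and S100a4 (0.984), and for Prelp Usp36 (0.987), Hbs1l (0.982) and Ptprd (0.974). Hbs1l is common to Fmod and Prelp. Over all 12 libraries, which fall into the clusters of makeup described above, so that no coefficient is given, the nearest genes were Penk, Akr1c18 and Ptgs2 for Dcn, and Zeb1, Hoxa11 and Gpc4 for Bgn. For Lum they were Irak3, Msl3l2 and Mcpt8, for Fmod Ccn3, Adamtsl3 and Clu, for Prelp Adamtsl3, Hs6st2 and Slc5a7, and for Ogn Svep1, Galnt13 and Nuak2.

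Genes that belong to the wider family, or build, bind, cleave or sense SLRPs, were counted by lists. In primed against non-primed vehicle, 28.9% of all genes were called higher and 22.9% lower. All 6 tested of the 7 other SLRP genes were called higher there, with a median difference of 3.39. Podnl1 (5.33 ± 0.95, limma adjusted p = 0.00226) and Podn (5.05 ± 1.23, limma adjusted p = 0.0073), for podocan and its relative, had the largest differences. Of 11 tested collagens that SLRPs bind 10 were higher and 1, Col2a1, was not called, with a median of 6.03. The 11 include types VI, XII and XIV, which are not fibril-forming collagens. Col5a2 (7.03 ± 1.68) and Col1a2 (6.6 ± 2.01) led. Of 12 tested genes in the list of proteases that process or cleave SLRPs 9 were higher, led by Mmp13 (8.71 ± 1.49) and Mmp3 (8.65 ± 1.33), collagenase-3 and stromelysin-1. This protease list also holds Pcolce (3.36 ± 0.95) and Pcolce2 (3.7 ± 0.8), both called higher. They encode enhancers of procollagen processing and are not proteases themselves. The chain-building enzymes were split. Of 21 tested enzymes of the linker and of chondroitin or dermatan sulfate 15 were higher, such as Csgalnact1, which starts chondroitin chains (6.89 ± 1.69), and Chst7 (5.2 ± 1.1). The chain-extending synthase Chsy3 was the only 1 called lower (-4.49 ± 0.7). Of 5 tested keratan sulfate enzymes, the sulfotransferases Chst2 (5.57 ± 1.17) and Chst1 (5.1 ± 0.95) and B4galt1 were higher and B4galt4 was lower (-1.77 ± 0.19). Of 6 TGF-beta genes 2 were higher, Tgfbr3 (3.34 ± 0.91) and Tgfb1 (2.61 ± 0.57), and Tgfbr1 was lower, near the shares of all genes. Of 11 cell surface receptors 8 were higher, led by Cd14 (7.37 ± 0.9) and Egfr (6.9 ± 1.33), and Met was lower (-4.34 ± 0.9). Of the large aggregating proteoglycans Vcan was higher (5.47 ± 1.09) and Bcan lower (-2.6 ± 0.78), the only 2 tested of 4. Col1a1, Col1a2 and Col3a1 are also fibroblast markers and Cd14 is also a macrophage marker, so these genes count in both kinds of list. Marker calls went with the list counts: 9 of 10 tested fibroblast, 8 of 9 macrophage and 6 of 7 tenocyte markers were higher, while 14 of 15 melanocyte markers were lower and 1, Ednrb, was higher. Their part in the counts was not tested. Chsy3 stood at 13.52 to 13.95 in the libraries rich in melanocyte transcripts and at 9.08 to 10.35 in the rest. B4galt4 stood at 10.63 to 11.16 in the rich libraries and at 9.02 to 10.79 in the rest, so these overlapped.

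After I-BET151 in vivo, all 6 tested other SLRP genes were called lower, with a median of -3.04, led by Podn (-4.16 ± 1.23) and Podnl1 (-3.82 ± 0.95). With in vivo library 1 as the only in vivo library, the median of these 6 was -1.19, against -0.01 over all genes. Collagens gave 2 lower calls of 11, near the 21.8% of all genes (Col14a1, -3.56 ± 0.84, and Col12a1, -3.34 ± 1.15), and the protease list 4 of 12 (Mmp13, -7.67 ± 1.49, and Mmp3, -7.01 ± 1.33). Linker and chondroitin or dermatan sulfate enzymes gave 8 lower and 2 higher calls of 21, with Chsy3 (3.19 ± 0.7) and Chst11 (-2.51 ± 0.81) leading. TGF-beta genes gave Tgfb1 lower (-2.34 ± 0.57) and Tgfbr1 higher (0.84 ± 0.18), and Vcan was lower (-3.26 ± 1.09). Of 11 receptors 7 were lower and 1, Met, was higher. Tlr2, through which biglycan signals, was lower by 4.43 ± 0.46 (a difference of -4.43, limma adjusted p = 0.000938), and Cd14 by 5.87 ± 0.9 (a difference of -5.87, limma adjusted p = 0.00268). Among the list genes named by rule for this comparison, Tlr2 and B4galt4, the only keratan sulfate enzyme called (1.72 ± 0.19), were also called with in vivo library 1 alone. Without in vivo library 1 the lower calls were 11 of 11 collagens, 10 of 12 genes of the protease list and 10 of 11 receptors, against 33.5% of all genes. Of the markers, 3 of 10 fibroblast, 6 of 9 macrophage and 3 of 7 tenocyte genes were lower over the 3 in vivo libraries, and of 15 melanocyte genes 4 were higher and 1 was lower. Their part in the counts was not tested.

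In vitro, the wider family and the receptors gave calls although the 8 SLRP genes gave none. Over all genes, 13.4% were called higher and 16.9% lower in the 6-library fit. Of the markers, 2 of 10 fibroblast, 2 of 15 melanocyte, 1 of 9 macrophage and 2 of 7 tenocyte genes were lower in the 6-library fit. In that fit 4 of 6 other SLRP genes were lower, with a median of -1.04: Nyx (nyctalopin, -1.99 ± 0.42, limma adjusted p = 0.014), Podnl1 (-1.56 ± 0.28, limma adjusted p = 0.00856), Ecm2 (-0.97 ± 0.26, limma adjusted p = 0.0315) and Tsku (tsukushi, -0.85 ± 0.18, limma adjusted p = 0.0142). Nyx stood at 7.07, 6.94 and 5.75 in primed vehicle and 4.18, 4.63 and 4.99 in in vitro libraries, with no overlap. Of 11 receptors 5 were lower and 1 was higher. Tlr2 had 12.5, 13.68 and 12.72 in vehicle and 10.53, 10.77 and 10.57 in treated libraries, a difference of -2.34 ± 0.29 (limma adjusted p = 0.00319). Cd14 was lower by 2.61 ± 0.33 (a difference of -2.61, limma adjusted p = 0.00341) and Tlr4 by 1.06 ± 0.12 (a difference of -1.06, limma adjusted p = 0.00279). P2rx7 (-1.7 ± 0.21) and Itga2 (-1.7 ± 0.3) were the other 2 called lower, and Lrp1 was the 1 called higher (0.78 ± 0.22). Cd44 (-0.33 ± 0.15), P2rx4 (-0.23 ± 0.21) and the other 3 receptors gave no call. The difference between these lists and the SLRP genes was not tested.

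None of the 11 collagens that SLRPs bind was called in vitro (median 0.09). The protease list gave 3 lower and 1 higher call of 12, with Mmp13 at -4.92 ± 0.56 (limma adjusted p = 0.00276) and Adamts5, an aggrecanase that also cleaves SLRPs, at 1.8 ± 0.3 (limma adjusted p = 0.00643). Linker and chondroitin or dermatan sulfate enzymes gave 3 higher and 2 lower calls of 21 (6 and 1 with median-centred libraries, 5 and 2 with quantile normalization). As deposited, these counts were close to or below the 13.4% higher and 16.9% lower of all genes. Xylt2, which starts the linker (0.91 ± 0.16), and Chsy3 (0.83 ± 0.2) led. Among keratan sulfate enzymes the galactosyltransferases B4galt4 (1.33 ± 0.18, limma adjusted p = 0.00404) and B4galt1 (0.57 ± 0.13, limma adjusted p = 0.0191) were higher. B4galt4 stood at 9.02, 9.39 and 9.03 in vehicle and 10.71, 10.57 and 10.16 in treated libraries, and at 10.79 in in vivo library 1. Tgfbr3 was higher (0.88 ± 0.25) and Tgfb1 lower (-0.66 ± 0.13), 2 higher and 1 lower call of 6, while Vcan was higher (0.82 ± 0.24) and Bcan lower (-1.89 ± 0.31). Over 12 libraries the calls from these lists were Nyx, B4galt7 (-0.6 ± 0.12, limma adjusted p = 0.0289), B4galt4 and Tlr2. The list genes named by rule had the same direction under both other scalings in each comparison.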

How the data were processed

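RNA of 12 cultures was sequenced as poly(A) libraries with a stranded kit, per the labels' protocols. The submitters' processing notes name cutadapt 1.18, STAR 2.6.1c, Subread 1.6.1 with featureCounts, DESeq2 1.24.0 and the build GRCm38. The authors deposited 1 table of rlog values, which are log2 values that DESeq2 makes from counts and that shrink the differences of genes with few reads. The annotation release and the strand setting of the counting were not given in the sources used here, and no counts were used, so depth is unknown and no count model was run.

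Genes with a mean rlog of at least 3 (16459 of 55413) were fitted with limma 3.58.1 in R 4.3.3, with 1 mean per group over all 12 libraries, moderated variances with a trend, and Benjamini-Hochberg adjustment over all genes tested at 0.05. A second fit took only primed vehicle and in vitro libraries. The script was tested on simulated data. Alternatives were no filter, a minimum of 5, no trend, robust moderation, array weights, only the 2 groups compared, median-centred libraries, quantile normalization, a replicate block and leaving out each library. Gene names came from the reference table, which matched all 55413 identifiers. Members, lists and tests were chosen with earlier results of these data known. Named by rule were the 10 members, up to 2 called genes per list and comparison with the largest difference, the 2 nearest coding neighbours on each side of each cluster, and the 3 genes most correlated with Dcn, Lum and each member with a group mean of at least 10. Ecm2 and Tsku in the in vitro comparison, Tlr4, Met, Col2a1, Ednrb, Comp, Thbs4, Tyrp1, Xist, Cenpp, P2rx7, P2rx4, Itga2, Lrp1, Cd44, and Chsy3, B4galt1, B4galt4 and Tgfbr1 in the primed comparison were named after their values were seen. Mkx, Scx, Egr1 and Sox9 were likewise named with their values known.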

Additional observations from a re-analysis of the deposited data

How the results depend on the processing

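For the 8 SLRP genes in primed against non-primed vehicle, 114 of the recomputed values kept direction and side of the threshold, 3 gained a call (Aspn each time), 2 lost one (Omd) and 0 reversed. The other comparisons moved more. In vivo treated against primed vehicle gave 8 SLRP calls of 12582 genes with array weights (main values 2 and 6531), 1 of 3950 with only the 2 groups, 0 of 195 with in vivo library 1 alone, and 0 to 8 of 2435 to 9962 when 1 library was left out. Prelp was also called under quantile normalization (adjusted p = 0.0456). In vitro against primed vehicle over 12 libraries called 743 genes, against 1180 with no filter, 470 at a minimum of 5, 6326 with array weights (Dcn among them, the 1 SLRP call), 4983 with only the 2 groups, 1155 with quantile normalization and 12 to 367 when 1 library was left out. In the 6-library fit (4983 genes), quantile normalization gave 1 SLRP call (Bgn, -0.35), and leaving out 1 library gave 0 to 2 of 2520 to 4612 genes. In vivo treated against non-primed vehicle (0 genes) gave 6563 with array weights, 2 with quantile normalization, 0 to 2812 when 1 library was left out, the highest without non-primed library 3, and 5816 genes with 7 SLRP calls with in vivo library 1 alone. In vitro against in vivo treated (0 genes) gave 1 with no filter, 12243 with 8 SLRP calls with array weights, and 0 to 8085 with 0 to 7 SLRP calls when 1 library was left out. These last 2 comparisons were set against in vivo library 1 alone after seeing the data. Signs turned for in vivo against primed vehicle with in vivo library 1 alone (Aspn 2.24, Omd 0.44, Ogn 1.33). They turned for in vitro against primed vehicle, in both fits, for Aspn with quantile normalization (0.21). Leaving out 1 library gave, in both fits, -0.88 to 0.31 for Aspn (0.01 and 0.31 without in vitro library 2 or 3), -0.8 to 0.49 for Fmod (0.44 without primed vehicle library 2, 0.49 without in vitro library 3), -0.71 to 0.48 for Prelp (0.48 in each of those) and -0.17 (without primed vehicle library 1) to 1.06 for Omd. They turned for Aspn in vivo against non-primed vehicle (-1.25 with array weights, and -0.75 to 2.75 when 1 library was left out, the lowest without in vivo library 1), and in vitro against in vivo library 1 alone for Bgn (-0.23), Aspn (-2.42) and Ogn (-0.52). The cause of these shifts was not tested. After group means were taken off, same-numbered libraries correlated at -0.435 to 0.369, and 4 of 18 pairs exceeded 0.1. Libraries with different numbers were not compared in this way, so whether replicate numbers pair the samples is not settled. With a replicate block, Aspn (3.76, adjusted p = 0.0438) and, in vivo, Prelp (adjusted p = 0.034) were called, in vitro over 12 libraries 173 genes were called, and the 6-library fit gave 1 SLRP call (Lum, -0.91, adjusted p = 0.0136). The unknown depth limits statements on Kera, Epyc and Omd most.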
